A study of Mus musculus with 33 samples.

Results

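The guide RNAs (gRNAs) described here target the 7 kb of intergenic sequence that follows the 3′ end of Zfp42 on mouse chromosome 8. A gRNA belongs to the set if the midpoint of its listed interval lies in chr8:43288014-43294999 (mm10). The set holds 551 of the 3908 gRNAs that the Zfp42 table lists with a position. Zfp42 lies on the minus strand at chr8:43295067-43307009, so its 3′ end is at the lower coordinate, and the midpoints of the gRNAs lie 72 to 7042 bp beyond it. In the RefSeq table of GRCm38.p6, 0 genes overlap the region, and the nearest annotated gene on the far side, the pseudogene Gm2221, ends 87471 bp before it. The rule uses only the position of the interval.

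All libraries came from genomic DNA of mouse embryonic stem cells of a line in which GFP replaces sequence at the transcription start site of Zfp42, with a placeholder guide at the ROSA26 locus. The library of gRNAs was electroporated, and gRNA counts were obtained from cells sorted as GFP-negative, from cells sorted as GFP-medium and from the unsorted population (bulk), with 4 replicates each. Cells were cultured in medium with serum, LIF, GSK-3 inhibitor XV and the MEK inhibitor UO126. The line reports a single tagged gene, and the labels number replicates of the line without saying whether these were separate clones or cultures. The p-values below thus cover the spread among these libraries, part of which may be technical.

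Zfp42 encodes the zinc finger protein REX1, a marker of the undifferentiated state of embryonic stem cells. In a screen of this kind each cell expresses a gRNA that directs Cas9 to a site, where repair leaves small insertions or deletions, and a site whose disruption lowers reporter expression is read from gRNAs that become more frequent among cells that lost GFP. The gRNA is read from the genomic DNA of the sorted cells, so a library also carries the gRNA of every cell that happened to be collected, whether or not its target site was changed.

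Counts of positioned and GFP-targeting gRNAs summed to 252023 to 487732 in GFP-negative, 121455 to 268197 in GFP-medium and 39096 to 82959 in bulk libraries. The 10 gRNAs that target GFP itself took 23.4% ± 5.74 of the counts in GFP-negative, 0.384% ± 0.391 in GFP-medium and 0.589% ± 0.198 in bulk libraries (SD, n = 4 each). The share of the placeholder guide in bulk was 1.22% and 1.09% in replicates 1 and 2, against 22.5% and 23.5% in replicates 3 and 4. Values are therefore also given within these pairs of replicates. The pairs are the batches of the batch term used below, inferred from this share, and no label names a batch. Levels below are counts scaled to the library total without the placeholder (CPM), and a share is the percentage of that total. Reads came from PCR without molecular identifiers and are not independent molecules, so floors cover counting error only.

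The gRNAs were placed densely over the region. The median step between listed start positions was 7 bp, the largest was 134 bp, and 526 of the 551 intervals overlapped another interval of the set. Neighbouring gRNAs therefore share much of their target and are not independent tests of a site. At 8 start positions a pair of gRNAs was listed, 1 interval of 22 bp and 1 of 23 bp. Both gRNAs of all 8 pairs were counted in bulk.

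Of the 551 gRNAs, 309 (56.1%) had no count in any of the 12 libraries, against 1890 of the 3357 other positioned gRNAs (56.3%). These 309 all had intervals of 23 bp. Of the 457 gRNAs with a 23-bp interval 67.6% were without a count, whereas each of the 94 gRNAs with a 22-bp interval was counted in bulk. The same split held for the other positioned gRNAs, where 69.0% of 2735 with a 23-bp interval and 0.482% of 622 with a 22-bp interval had no count. Among the gRNAs of the region that were counted in bulk, mean levels ran from 56.0 to 2482 CPM with a median of 746 CPM for the 22-bp intervals, and from 10.2 to 4287 CPM with a median of 626 CPM for the 23-bp intervals. A gRNA without a count in bulk has no measurement here, so the results rest on the 242 gRNAs counted in at least 1 bulk library, 216 of which were counted in all 4.

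As a block, the downstream gRNAs took a smaller share of the counts in both sorted populations than in bulk. They held 10.3%, 13.4%, 10.8% and 11.4% of counts in the GFP-negative libraries, 6.08%, 12.8%, 8.98% and 9.34% in the GFP-medium libraries, and 17.8%, 17.0%, 17.7% and 17.3% in the bulk libraries. Every sorted library lay below every bulk library, while GFP-negative and GFP-medium libraries overlapped. The log2 ratio of mean shares was -0.61 for GFP-negative over bulk, -0.91 for GFP-medium over bulk and 0.30 for GFP-negative over GFP-medium. In replicates 1 and 2 the first of these ratios was -0.56, and in replicates 3 and 4 it was -0.66. For GFP-medium over bulk the corresponding values were -0.88 and -0.94. The other 3357 positioned gRNAs also fell in GFP-negative libraries, all below bulk (log2 ratio -0.33), but rose in GFP-medium libraries (0.14). The next 98 gRNAs listed farther downstream had ratios of -1.38 for GFP-negative and -2.70 for GFP-medium over bulk. Every sorted library lay below every bulk library there, so a smaller share than in bulk was not particular to the region. No p-value is given for these sums, because the gRNAs were taken as a list.

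The share in GFP-negative libraries is set in part by the GFP-targeting gRNAs, which fill a large part of those libraries. With their counts left out of the totals, the log2 ratio for GFP-negative over bulk was -0.22 and the libraries of these populations overlapped. Leaving them out gave -0.91 for GFP-medium over bulk, and 0.69 for GFP-negative over GFP-medium, with all 4 GFP-negative libraries above all 4 GFP-medium libraries. On this scale the GFP-negative over bulk ratio was 0.043 for the other positioned gRNAs, with overlapping libraries. It was -0.99 for the next 98 gRNAs farther downstream. The direction of the region's block against bulk is therefore the same with and without GFP-targeting counts, but the size for GFP-negative cells is not.

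Along the region the shares were not uniform. The tile of 1 kb next to the gene, which starts at 43294000 and lists 106 of the gRNAs, took 4.29%, 6.07%, 4.53% and 4.40% of counts in GFP-negative libraries, 2.69%, 3.17%, 4.43% and 3.94% in GFP-medium libraries and 4.35%, 4.53%, 4.41% and 4.55% in bulk libraries. GFP-negative libraries scattered around the bulk values, and replicate 2 was the highest. GFP-medium libraries overlapped with bulk only through replicate 3. The log2 ratio of mean shares was 0.11 for GFP-negative over bulk, -0.33 for GFP-medium over bulk and 0.44 for GFP-negative over GFP-medium. Within replicates 1 and 2 the GFP-negative over bulk ratio was 0.22, and within replicates 3 and 4 it was -0.0048. For GFP-medium over bulk the values were -0.60 in replicates 1 and 2 and -0.10 in replicates 3 and 4. The difference between GFP-negative and GFP-medium came mostly from replicates 1 and 2, with a ratio of 0.82, whereas it was 0.094 in replicates 3 and 4. Without the GFP-targeting counts the ratio was 0.50, and all 4 GFP-negative libraries lay above all 4 bulk libraries.

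The 6 tiles farther from the gene list 445 gRNAs. Together they held 6.64% ± 0.636 of counts in GFP-negative, 5.74% ± 2.71 in GFP-medium and 13.0% ± 0.470 in bulk libraries (SD, n = 4 each), with log2 ratios of -0.97 for GFP-negative over bulk and -1.18 for GFP-medium over bulk, and every sorted library below every bulk library. The GFP-negative over bulk ratio was -0.97 in replicates 1 and 2 and -0.97 in replicates 3 and 4. Each of the 6 tiles had a lower mean share in both sorted populations than in bulk, with overlapping libraries in some.

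Taken tile by tile from the far end, the tile at 43288000 (90 gRNAs) held 1.31% ± 0.432 in GFP-negative, 1.05% ± 0.770 in GFP-medium and 2.63% ± 0.227 in bulk libraries. At 43289000 (128 gRNAs) the shares were 1.08% ± 0.902 in GFP-negative, 1.14% ± 0.466 in GFP-medium and 2.23% ± 0.369 in bulk libraries. At 43290000 (50 gRNAs) they were 0.747% ± 0.689 in GFP-negative, 1.08% ± 1.12 in GFP-medium and 2.05% ± 0.219 in bulk libraries. All sorted libraries lay below all bulk libraries at 43288000, all GFP-medium libraries did so at 43289000, and all GFP-negative libraries did so at 43290000.

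The tile at 43291000 (42 gRNAs) held 0.0887%, 0.204%, 0.394% and 2.93% in GFP-negative, 0.173%, 0.216%, 0.350% and 1.06% in GFP-medium and 1.45%, 1.11%, 1.63% and 1.46% in bulk libraries. Only GFP-negative replicate 4 exceeded bulk, and all GFP-medium libraries lay below it. Within replicates 1 and 2 the GFP-negative over bulk log2 ratio of this tile was -3.13, and within replicates 3 and 4 it was 0.11. At 43292000 (47 gRNAs) the shares were 0.735% ± 0.50 in GFP-negative, 0.643% ± 0.559 in GFP-medium and 1.06% ± 0.148 in bulk libraries, which overlapped. The GFP-negative over bulk ratio of that tile was 0.0098 within replicates 1 and 2 and -1.40 within replicates 3 and 4, so its lower mean came from replicates 3 and 4. At 43293000 (88 gRNAs) they were 1.86% ± 0.905 in GFP-negative, 1.39% ± 0.599 in GFP-medium and 3.63% ± 0.103 in bulk libraries, with every sorted library below every bulk library.

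The counts were tested per tile with edgeR's quasi-likelihood F test after TMM scaling, which sets each library relative to the trimmed mean of the tiles rather than to its total. Of the 43 features tested, which are the tiles with enough gRNAs and the GFP-targeting gRNAs summed as 1 feature, 14% were called higher and 4.65% lower in GFP-negative than in bulk libraries at an adjusted p under 0.05. Of the 7 downstream tiles, 1 was called higher and 0 lower. The called tile was the one at 43294000, with a log2 change of 1.08 and a Benjamini-Hochberg adjusted p of 0.00516. The other 6 had log2 changes of -0.44 to 0.47 with adjusted p of 0.857 to 0.999.

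That call depends on the scaling. The median log2 change over all 43 features was -0.01 with TMM and -0.97 with total counts for GFP-negative over bulk, so a tile at 0 on one scale is near -1 on the other. With total counts the tile at 43294000 had a log2 change of 0.11 and an adjusted p of 0.690 in edgeR. In the exact permutation test of shares, 2-sided with 4 libraries against 4, it had an adjusted p of 0.848, and the tiles at 43288000, 43290000 and 43293000 were called lower, each with an adjusted p of 0.0424. These are 3 of the 7 downstream tiles, while the same test called 24 of all 43 features (55.8%) lower and 5 (11.6%) higher, so lower calls were no more frequent downstream of the gene than over the whole table.

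The tiles on the gene side of the region are given for comparison. In the tile at 43295000, which spans the 3′ end of Zfp42, the share was 5.96% in GFP-negative, 2.67% in GFP-medium and 2.65% in bulk libraries, and the edgeR log2 change of GFP-negative over bulk was 2.12 (adjusted p = 7.44e-05). At 43296000, inside the gene, the share was 13.8% in GFP-negative, 3.59% in GFP-medium and 3.61% in bulk libraries, with a log2 change of 2.88 (adjusted p = 3.38e-10). The difference between the tile at 43294000 and these neighbours was not tested. Shares of GFP-negative libraries in the tiles at 43295000 and 43294000 overlapped, since replicate 3 held 3.99% in the tile at 43295000.

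In GFP-medium over bulk, 20.9% of the 43 features were called higher and 4.65% lower. Of the 7 downstream tiles, 0 were called in either direction, and an unadjusted p under 0.05 was reached by 0 of them. The tile at 43294000 had a log2 change of 0.19, and the other 6 had values of -1.07 to -0.33, with adjusted p of 0.176 to 0.773. In GFP-negative over GFP-medium, 9.3% of features were called higher and 11.6% lower. The tile at 43294000 was again the only downstream tile called, with a log2 change of 0.89 and an adjusted p of 0.0186. This call was lost with total counts, with DESeq2 and without GFP-negative replicate 2, and the shares behind it differed mainly in replicates 1 and 2. The permutation of shares called 0 of the 43 features in this comparison, so it cannot decide on this tile.

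How often a gRNA of bulk was found again in a sorted library also differed along the region. Of the 216 gRNAs counted in all 4 bulk libraries, 32.8% ± 6.12 were found in a GFP-negative library and 48.7% ± 14.1 in a GFP-medium library (SD, n = 4 each), against 28.4% ± 5.39 and 44.3% ± 12.8 of the 1238 such gRNAs elsewhere. In the tile at 43294000, 58.7%, 60.9%, 54.3% and 50.0% of 46 such gRNAs were found in the 4 GFP-negative libraries. In the 6 farther tiles the mean was 26.5% ± 7.70 of 170 gRNAs, and single tiles had means of 19.4% to 32.6%. The 6 farther tiles together gave 16.5%, 34.7%, 25.3% and 29.4%, so each library found a larger percentage of the tile next to the gene, without overlap. Bulk levels differed between the tiles as well. The median over gRNAs counted in bulk was 894 CPM at 43294000, the highest of the 7 tiles, and 239 CPM to 761 CPM in the others, with the lowest at 43289000, where the smallest percentage was found. The part of bulk level in these percentages was not tested.

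The same tile also stood higher in GFP-medium libraries, where 71.2% ± 18.0 of its gRNAs were found, against 42.6% ± 13.4 in the 6 farther tiles. Of its 46 gRNAs, 1 was found in no GFP-negative library and 0 in no GFP-medium library. Of the 170 gRNAs of the 6 farther tiles, 64 were found in no GFP-negative library and 27 in no GFP-medium library. Of the 1238 gRNAs elsewhere that were counted in all bulk libraries, 490 were found in no GFP-negative library and 233 in no GFP-medium library. In the tile at 43295000 the means were 68.2% in GFP-negative and 64.4% in GFP-medium libraries, so the GFP-negative value of the tile next to the gene lay between those of its neighbours on either side. These percentages depend on sequencing depth and on the number of sorted cells, which the sources used here do not state.

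Bins of 250 bp inside the tile at 43294000, a width chosen after its values were seen, are given as a description. The bin nearest to the gene, which starts at 43294750 and lists 29 gRNAs, held 2.05%, 2.29%, 1.20% and 1.70% of counts in GFP-negative, 0.232%, 0.526%, 0.403% and 0.636% in GFP-medium and 1.51%, 1.47%, 1.32% and 1.36% in bulk libraries. GFP-medium libraries were lower than all others there, without overlap, and the log2 ratio was -1.66 for GFP-medium over bulk and 2.01 for GFP-negative over GFP-medium. GFP-negative libraries overlapped with bulk, with a log2 ratio of 0.35. In the 3 bins farther from the gene the log2 ratio was between -0.29 and 0.23 for GFP-negative over bulk and between -0.48 and 0.46 for GFP-medium over bulk, and the libraries overlapped.

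Single gRNAs were tested in the whole table with the same edgeR model. After the filter on low counts 208 of the 551 gRNAs were tested, among 1342 in all. A gRNA passes that filter largely through its bulk counts, so lower levels in the sorted cells are over-represented among those tested. In GFP-negative over bulk, 0 of the 208 were called higher, where 0.596% of all tested gRNAs were, and at an unadjusted p under 0.05, 0 were higher. DESeq2 also called 0. The tests called 80 lower, which is 38.5% of those tested, against 44.6% of all tested gRNAs. Of these 80, 58 were never counted in GFP-negative cells. With the replicate number as a block, 105 gRNAs of the region were called lower, and no share over the whole table is given for that fit.

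In GFP-medium over bulk 0 of the 208 were called higher, against a background of 0% of all tested gRNAs, and 0 were higher at an unadjusted p under 0.05 or with DESeq2. The 33 called lower are 15.9%, against 19.7% of all tested gRNAs, and 23 of them had no count in any GFP-medium library. With the replicate number as a block the number called lower was 52, again without a share over the whole table. Without a block, both shares of lower calls lay under the background. Of the 80 gRNAs lower in GFP-negative and the 33 lower in GFP-medium cells, 26 were shared. This is 32.5% of the 80 and 78.8% of the 33, and both comparisons use the same bulk libraries. No such overlap is given for the whole table, so whether it is particular to the region was not tested.

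The lower calls were unevenly spread over the tiles. In GFP-negative over bulk they numbered 12 of 33 tested at 43288000, 21 of 33 at 43289000, 8 of 23 at 43290000, 9 of 18 at 43291000, 4 of 16 at 43292000, 21 of 39 at 43293000 and 5 of 46 at 43294000. In GFP-medium over bulk the same tiles held 4, 9, 4, 3, 2, 9 and 2 lower calls. The tile next to the gene had the most tested gRNAs and few lower calls in both comparisons.

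By the plain criterion that all 4 libraries of one population lie beyond all 4 of the other, 0 of the 551 gRNAs lay above bulk in GFP-negative cells, where 0.408% of all positioned and GFP-targeting gRNAs did, and 112 (20.3%) lay below, against 22.6% of all. In GFP-medium cells 0 lay above bulk, against 0.255% of all, and 95 (17.2%) lay below, against 17.6%. Between GFP-negative and GFP-medium cells 0 lay above, against 0.383%, and 2 (0.363%) lay below, against 0.536%. No single downstream gRNA was therefore higher than bulk in all 4 libraries of either sorted population.

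The largest decreases called in GFP-negative cells lay in the farther tiles. Among gRNAs with no GFP-negative count, the size of the decrease is set by the bulk level. The median log2 change of GFP-negative over bulk was -2.67 over the 208 tested gRNAs of the region and -4.06 over all tested gRNAs. At chr8:43293106-43293127 no GFP-negative library held a count, against 2694, 3218, 1635 and 1867 CPM in bulk, which is at least 232.7-fold lower against a floor of 3 counts per library (edgeR adjusted p = 0.00635). It had 4.72, 514, 0 and 0 CPM in GFP-medium libraries, a log2 change of -3.29 against bulk that did not pass the test (adjusted p = 0.476). Likewise chr8:43290403-43290424, which had the highest mean bulk level of its tile, was without a count in GFP-negative libraries, against 5158, 1639, 1612 and 358 CPM in bulk, at least 216.7-fold lower (adjusted p = 0.00506).

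Among the most depleted gRNAs 2 were missing from both sorted populations. Neither the GFP-negative nor the GFP-medium libraries held a count for chr8:43291848-43291870, against 2879, 1205, 1497 and 1739 CPM in bulk. It was at least 180.9-fold lower in GFP-negative (adjusted p = 0.00546) and at least 104.2-fold lower in GFP-medium cells (adjusted p = 0.0148). Similarly, chr8:43288647-43288669 was without a count in all 8 sorted libraries, against 1909, 1230, 1059 and 946 CPM in bulk, at least 127.1-fold lower in GFP-negative (adjusted p = 0.00488) and at least 73.2-fold lower in GFP-medium cells (adjusted p = 0.0132).

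A further gRNA, at chr8:43293765-43293786, had 14.1, 0, 0 and 0 CPM among GFP-negative, none in GFP-medium and 1170, 1350, 1359 and 997 CPM in bulk libraries. It was at least 69.4-fold lower in GFP-medium cells (adjusted p = 0.0119), and its log2 change in GFP-negative cells was -7.82 (adjusted p = 0.0184). For each of these 5 gRNAs all 4 bulk libraries were above the sorted libraries in which it was called, although the bulk values of chr8:43290403-43290424 spread widely. Over the 58 gRNAs called lower and without a count in GFP-negative cells, the bounds went down to at least 6.99-fold.

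In the tile next to the gene the 5 gRNAs called lower in GFP-negative cells were at chr8:43294072-43294094, chr8:43294134-43294156, chr8:43294582-43294604, chr8:43294879-43294900 and chr8:43294879-43294901, named here after their values were seen. The last 2 start at the same base and differ by 1 bp in length, so they share nearly all of their interval. Of this pair chr8:43294879-43294900 had 31.7, 0, 0 and 0 CPM among GFP-negative, 0, 29.8, 0 and 283 CPM in GFP-medium and 1755, 1868, 1059 and 1177 CPM in bulk libraries. Its partner was not counted in GFP-negative libraries and had 4.72, 63.4, 0 and 0 CPM in GFP-medium and 293, 675, 1036 and 537 CPM in bulk libraries. Both were low in every sorted library relative to bulk.

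At the other end, 9 gRNAs of the region were counted in all 4 GFP-negative libraries, and 6 of these lay in the tile next to the gene. All 9 were among the 216 gRNAs counted in all 4 bulk libraries. Of the 1238 such gRNAs elsewhere, 77 were counted in all 4 GFP-negative libraries. In the tile at 43295000 this held for 12 of 33. The 9 gRNAs of the region are named after their values were seen, and none of the 6 was called against bulk. The 3 in the farther tiles were chr8:43289823-43289845, chr8:43289971-43289992 and chr8:43290919-43290940. At chr8:43294715-43294737 the levels were 897, 5591, 652 and 2508 CPM among GFP-negative, 0, 459, 2371 and 3670 CPM in GFP-medium and 2232, 1447, 875 and 1074 CPM in bulk libraries. The adjacent gRNA, chr8:43294692-43294714, which had the highest mean bulk level of the tile, had 559, 141, 3140 and 6543 CPM among GFP-negative, 3205, 3378, 1021 and 74.1 CPM in GFP-medium and 1278, 2929, 2441 and 1509 CPM in bulk libraries. At chr8:43294630-43294652 the values were 1393, 20.5, 10673 and 2103 CPM among GFP-negative, 23.6, 313, 1474 and 343 CPM in GFP-medium and 1185, 1459, 967 and 1816 CPM in bulk libraries. The sorted libraries of these gRNAs ranged on both sides of the bulk values.

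The other 3 of the 6 lay at chr8:43294404-43294425, chr8:43294404-43294426 and chr8:43294912-43294933. At chr8:43294912-43294933 the levels were 1203, 6.15, 43.5 and 15.9 CPM among GFP-negative, 0, 0, 626 and 242 CPM in GFP-medium and 739, 687, 852 and 1228 CPM in bulk libraries, so 3 GFP-negative and all 4 GFP-medium libraries were below every bulk library. The pair that starts at 43294404 has nearly the same target. The 22-bp interval had 10.6, 6883, 31.6 and 175 CPM among GFP-negative, 9.44, 26.1, 1284 and 5831 CPM in GFP-medium and 1878, 2387, 2027 and 1535 CPM in bulk libraries. The 23-bp interval had 1460, 535, 2366 and 67.5 CPM among GFP-negative, 0, 257, 239 and 14611 CPM in GFP-medium and 1032, 1157, 1842 and 818 CPM in bulk libraries. In GFP-negative cells the library that was highest for one was not the highest for the other.

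Sorted libraries were carried by few gRNAs, and different ones in each replicate. The number of gRNAs of the region that held 50% of its counts was 7, 8, 8 and 6 in GFP-negative, 6, 12, 11 and 11 in GFP-medium and 47, 58, 60 and 55 in bulk libraries. For the other positioned gRNAs this number was 22, 28, 42 and 36 in GFP-negative and 16, 48, 54 and 36 in GFP-medium libraries. In bulk libraries it was 264, 295, 290 and 302, so other gRNAs also showed fewer in sorted libraries. The leading gRNA alone held 9.90% to 20.0% of the region's counts in GFP-negative, 9.46% to 16.4% in GFP-medium and 1.72% to 3.03% in bulk libraries. Pearson's r of log2(CPM + 1) between replicates, over the 216 gRNAs counted in all bulk libraries, was 0.0962 to 0.255 within GFP-negative, 0.0744 to 0.306 within GFP-medium and 0.464 to 0.622 within bulk. This r is across gRNAs, which share targets and are not independent replicates, and over the 1238 gRNAs elsewhere its medians were 0.340 within GFP-negative, 0.329 within GFP-medium and 0.586 within bulk.

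The highest mean level in GFP-negative cells within a tile came from a single library in most tiles. At chr8:43291188-43291209 the levels were 0, 0, 0 and 22887 CPM among GFP-negative, 0, 0, 0 and 189 CPM in GFP-medium and 724, 579, 1451 and 767 CPM in bulk libraries. At chr8:43294981-43295002, the leading gRNA of the tile next to the gene, they were 0, 15939, 0 and 0 CPM among GFP-negative, 0, 89.5, 683 and 0 CPM in GFP-medium and 477, 1398, 1543 and 460 CPM in bulk libraries. At chr8:43293186-43293207 they were 15225, 0, 15.8 and 19.8 CPM among GFP-negative, 2837, 11.2, 214 and 815 CPM in GFP-medium and 924, 1025, 507 and 767 CPM in bulk libraries. In each case 1 GFP-negative library was far above bulk and the other 3 were below every bulk library.

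At 43289000 and 43290000 the leading gRNAs of the GFP-negative libraries were spread in the same way, whereas 2 libraries were above every bulk library at 43288000 and at 43292000. In the tile at 43288000, chr8:43288156-43288178 had 654, 8195, 0 and 4095 CPM among GFP-negative, 0, 29.8, 0 and 60.6 CPM in GFP-medium and 2155, 1591, 1405 and 2430 CPM in bulk libraries. It was the leading gRNA of its tile in bulk as well. Its log2 change was 1.75 for GFP-negative over bulk (adjusted p = 0.600) and 7.46 for GFP-negative over GFP-medium (adjusted p = 0.0426). The call against GFP-medium was lost in 10 of the 12 fits that left out a library, with total counts (adjusted p = 0.0509), without the filter (0.0518), with the batch term (0.0694) and with the replicate block (0.215). The leading gRNAs at 43289000, 43290000 and 43292000, at chr8:43289024-43289045, chr8:43290880-43290902 and chr8:43292644-43292665, had edgeR adjusted p of 0.243, 0.834 and 0.412 for GFP-negative over bulk.

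In GFP-medium libraries a gRNA other than that of the GFP-negative libraries led each tile. Next to the gene, chr8:43294012-43294034 had 0, 0, 936 and 0 CPM among GFP-negative, 0, 1092, 14697 and 6.73 CPM in GFP-medium and 724, 784, 1405 and 486 CPM in bulk libraries. At chr8:43290919-43290940 the levels were 63.3, 3008, 3.95 and 31.7 CPM among GFP-negative, 0, 12088, 49.4 and 1098 CPM in GFP-medium and 1524, 2097, 1313 and 1535 CPM in bulk libraries. The other 5, at chr8:43288480-43288501, chr8:43289971-43289992, chr8:43291114-43291135, chr8:43292629-43292651 and chr8:43293024-43293045, had edgeR adjusted p of 0.594 to 0.900 for GFP-medium over bulk. Of the gRNAs that led a tile in any population, 0 passed the test as higher than bulk. This follows from the 0 of 208 tested gRNAs called higher and is no separate result.

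Bulk levels were more even. The highest mean bulk level of the region was at chr8:43293024-43293046, with 7.04, 2.05, 0 and 270 CPM among GFP-negative, 1199, 190, 2272 and 2936 CPM in GFP-medium and 3741, 5147, 3040 and 5218 CPM in bulk libraries. Its GFP-negative libraries were all below its GFP-medium libraries except that replicate 4 at 270 CPM exceeded GFP-medium replicate 2 at 190 CPM, and all sorted libraries were below bulk. The log2 change was -5.67 for GFP-negative over bulk (adjusted p = 0.0587) and -0.83 for GFP-medium over bulk (adjusted p = 0.878). The bulk leaders at 43289000 and 43292000 were chr8:43289652-43289674 and chr8:43292742-43292763, with adjusted p of 0.508 and 0.809 for GFP-negative over bulk.

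Between GFP-negative and GFP-medium cells edgeR called 6 of the 208 tested gRNAs higher (2.88%, against 3.65% of all tested gRNAs) and 39 lower (18.8%, against 21.9%). Of these 39, 29 were without a count in GFP-negative libraries. With the replicate number as a block both counts were 0, and both were 0 without GFP-negative replicate 1. Without GFP-medium replicate 3, 0 were called higher and 35 lower. The lowest log2 change, at chr8:43289497-43289518, came with no count in GFP-negative libraries and 0, 5228, 0 and 0 CPM in GFP-medium libraries. Its mean was at least 129.2-fold lower in GFP-negative cells (adjusted p = 0.0253), a bound that rests on GFP-medium replicate 2 alone. With 1 library left out at a time, the log2 change of chr8:43289497-43289518 ran from -11.83 to 0. The next, at chr8:43289039-43289060, had no GFP-negative count and 2624, 3.73, 0 and 0 CPM in GFP-medium libraries (adjusted p = 0.0262).

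At chr8:43293168-43293190 more than 1 library contributed, with no GFP-negative count and 0, 1902, 280 and 680 CPM in GFP-medium libraries, at least 70.7-fold lower in GFP-negative cells (adjusted p = 0.0253). Among the gRNAs called higher, chr8:43290492-43290514 had 0, 39.0, 0 and 1048 CPM in GFP-negative libraries and none in GFP-medium libraries (adjusted p = 0.0305), and chr8:43292986-43293008 had 0, 0, 0 and 286 CPM in GFP-negative libraries and none in GFP-medium libraries (adjusted p = 0.0268). Both were counted in all 4 bulk libraries, at 484 to 1074 CPM and 77.0 to 486 CPM. The calls among these 5 gRNAs were lost with the replicate block in each case, and with the batch term except at chr8:43293168-43293190. Of the 12 fits that left out a library, the call was lost in 6 at chr8:43290492-43290514, in 5 at chr8:43292986-43293008, in 2 each at chr8:43289497-43289518 and chr8:43289039-43289060 and in 1 at chr8:43293168-43293190. DESeq2 did not call chr8:43292986-43293008 (adjusted p = 0.0642).

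The 2 gRNAs whose 4 GFP-negative libraries all lay below their 4 GFP-medium libraries were at chr8:43293195-43293217 and chr8:43294128-43294150. For chr8:43293195-43293217 there was no count in GFP-negative libraries, against 23.6, 723, 115 and 189 CPM in GFP-medium libraries and 1955, 1061, 714 and 998 CPM in bulk libraries. The values of chr8:43294128-43294150, named after they were seen, were 0, 2.05, 3.95 and 59.5 CPM among GFP-negative, 85.0, 2107, 749 and 1569 CPM in GFP-medium and 908, 2206, 1059 and 1765 CPM in bulk libraries. Separation of this kind was at or under its frequency in the whole table in all 3 comparisons.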

How the data were processed

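Only the Zfp42 table was used, with 12 libraries. The deposited values are whole-number counts of reads per gRNA whose totals differ between libraries, and were used as counts without normalization. The submitters' processing notes name the build mm10. How gRNAs were counted, how many cells were sorted and whether intervals start from 0 or 1: not given in the sources used here. Lengths count both ends. No gRNA sequence is printed. The other samples of the series were not analysed here.

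The placeholder guide, which is no library gRNA, was left out of totals and tests. It held 0.000352% to 0.596% of all counts in GFP-negative, 0.0212% to 4.27% in GFP-medium and 1.09% to 23.5% in bulk libraries. Titles gave the populations and replicate numbers. All 12 libraries entered 1 fit with edgeR 4.0.16 in R 4.3.3 (filterByExpr with a minimum count of 10, TMM, robust quasi-likelihood F test, 2-sided, Benjamini-Hochberg over all features tested, threshold 0.05). Tiles of 1 kb with at least 5 listed gRNAs were fitted on summed counts. Alternatives were DESeq2 1.42.0, TMMwsp, total counts, no filter, an exact permutation of shares and a grid moved by 500 bp. Others were each tile without its leading gRNA, a batch term, a replicate block and leaving out each library. The batch term separates the pairs of replicates that differ in the placeholder share of bulk, and is not a recorded batch. Scripts were tested on simulated data.

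The labels name the replicate of the line, and deviations from the group means correlated over same-numbered libraries (r of 0.105 to 0.270) and not over different numbers (all below 0). Deviations from a group mean sum to 0, so the values below 0 follow in large part from the positive ones. From the same-numbered values, the numbers were taken to pair the libraries. The main fit still had no replicate block, and blocked counts stand beside the results they change.

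The gRNAs, tiles and lists were chosen with earlier results of these data known. The text names up to 10 gRNAs per comparison and direction with the largest log2 change among those past the test (the top 3 here, with values), and the gRNA with the highest mean CPM of each tile in each population. Others are said to be named after their values were seen.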

Additional observations from a re-analysis of the deposited data

Results flagged for a closer look

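A library far from the other 3 of its population (Dixon's criterion for 4 values) was looked for in the shares of the region and its 7 tiles, 24 groups in all, and in the CPM of the leading gRNA of each tile in each population, 21 groups. Chance marks about 1 in 20 groups, and leading gRNAs were chosen for high means, which favours such libraries. Among the shares 2 groups were marked. GFP-negative replicate 4 held 2.93% in the tile at 43291000, and GFP-negative replicate 2 held 6.07% in the tile at 43294000.

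Among the leading gRNAs 10 groups were marked, 5 in GFP-negative, 5 in GFP-medium and 0 in bulk libraries. In GFP-negative libraries they were chr8:43289024-43289045 with 13011 CPM in replicate 2, chr8:43290880-43290902 with 8366 CPM in replicate 3, chr8:43291188-43291209 with 22887 CPM in replicate 4, chr8:43293186-43293207 with 15225 CPM in replicate 1 and chr8:43294981-43295002 with 15939 CPM in replicate 2. In GFP-medium libraries they were chr8:43289971-43289992 with 5773 CPM in replicate 1, chr8:43290919-43290940 with 12088 CPM in replicate 2, chr8:43291114-43291135 with 4323 CPM in replicate 4, chr8:43292629-43292651 with 6663 CPM in replicate 2 and chr8:43294012-43294034 with 14697 CPM in replicate 3. Each of the 4 replicates of both sorted populations holds at least 1 of them.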

How the results depend on the processing

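The log2 ratio of the region's share kept its sign in every alternative run for it. Without GFP-targeting gRNAs the log2 ratio was -0.22 for GFP-negative over bulk and 0.69 for GFP-negative over GFP-medium. The gRNAs lower in GFP-negative than in bulk numbered 87 with DESeq2, 115 without the filter and 105 with the replicate block. Those lower in GFP-medium than in bulk numbered 51 with DESeq2, 62 without the filter and 52 with the replicate block. Over the whole table DESeq2 called 627 of 1342 gRNAs lower in GFP-negative and 383 lower in GFP-medium than in bulk. No share over the whole table is given for the other fits of gRNAs in this section, including those that leave out a library. In GFP-negative over GFP-medium, 0 were higher with the replicate block and 0 with the batch term, and 0 and 11 were lower. Tiles called higher in GFP-negative than in bulk numbered 0 with total counts and 0 with the permutation of shares, which called 3 lower, among 24 of all 43 features. In GFP-negative over GFP-medium the count was 0 with total counts, DESeq2 and the permutation, which called 0 of all 43 features there. The replicate block left the number of tiles called the same in each comparison.

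Leaving out 1 library gave 74 to 104 gRNAs lower in GFP-negative and 30 to 61 lower in GFP-medium than in bulk (61 without GFP-medium replicate 2). In GFP-negative over GFP-medium it gave 0 to 6 higher, with 2, 1, 0 and 1 without GFP-medium replicates 1 to 4, 0 without GFP-negative replicate 1 and 3 without bulk replicate 4. The count of lower calls was 0 to 44, with 0 without GFP-negative replicate 1, 23 without GFP-medium replicate 2 and 24 without bulk replicate 1. Tiles called higher numbered 1 in each case in GFP-negative over bulk, and 0 to 1 in GFP-negative over GFP-medium (0 without GFP-negative replicate 2). Share ratios were -0.69 to -0.56 for GFP-negative over bulk, -1.10 to -0.75 for GFP-medium over bulk and 0.14 to 0.49 for GFP-negative over GFP-medium.

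Several tiles turned their sign in a comparison in which the main fit had not called them. In GFP-negative over bulk these were 43288000 (0.0245), 43289000 (0.0333) and 43293000 (0.0436) with TMMwsp, although the permutation of shares called 43288000 and 43293000 lower. They were also 43293000 without the filter (0.0047) and without its top gRNA over all libraries (0.17), and 43292000 with total counts (-0.54) and permutation (-0.54). Tile 43291000 had -0.65 with total counts, -0.65 with permutation, -0.92 without its top gRNA, -1.01 with the replicate block and -0.66 with the batch term. In GFP-medium over bulk, 43294000 had -0.33 with total counts and with permutation. In GFP-negative over GFP-medium, 43289000 had -0.078 with total counts and permutation and -0.16 without its top gRNA. Tile 43290000 had -0.53 with total counts and permutation, -0.11 with DESeq2 and -0.10 with the replicate block, and 43291000 had -0.077 without its top gRNA. Leaving out 1 library gave -0.31 to 0.17 at 43288000, -0.92 to 0.29 at 43289000, -1.63 to 0.45 at 43291000 and -0.27 to 0.24 at 43293000 for GFP-negative over bulk, and -0.50 to 0.79 at 43289000, -0.49 to 0.97 at 43290000 and -0.56 to 2.19 at 43291000 for GFP-negative over GFP-medium. The cause was not tested, except that total counts and shares move every tile by the same amount per library. With 4 libraries a population the smallest p of the exact permutation is 0.0286, and a gRNA with no count in a sorted library cannot be told from one below 3 counts there.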
